A study of Rattus norvegicus with 320 samples.

Results

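miR-150, miR-155 and miR-142 are microRNAs of white blood cells, each processed from one hairpin precursor whose 2 arms, 5p and 3p, can both be loaded into Argonaute. Every miRNA of the count table named for one of these hairpins was taken, with any arm suffix. This gave 6 of 616 miRNAs, of which 604 are known and 12 are candidates. The 4 more abundant arms are miR-150-5p, miR-155-5p, miR-142-5p and miR-142-3p, and the other 2 are miR-150-3p and miR-155-3p. The mature sequences are printed to show how little the members share, 5′ to 3′, with capitals for the seed (bases 2 to 8), the stretch that pairs with target messages.
rno-miR-150-5p: uCUCCCAAcccuuguaccagug
rno-miR-150-3p: cUGGUACAggccuggggga
rno-miR-155-5p: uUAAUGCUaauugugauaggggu
rno-miR-155-3p: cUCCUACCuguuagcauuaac
rno-miR-142-5p: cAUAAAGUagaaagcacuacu
rno-miR-142-3p: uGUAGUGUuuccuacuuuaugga
Each member has a seed of its own, and no other miRNA of the table has any of these seeds. The prefix rno-, for rat, is dropped from here on. All 6 sequences are those of the count table, and the RefSeq set with assembly GRCr8 held 4 of the 6, the arms of miR-155 and miR-142, each with the same sequence.

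As background, miR-150 builds up in mature B and T lymphocytes and restrains Myb, a factor of immature lymphoid cells. miR-155 is processed from a non-coding transcript and is made on activation of lymphocytes and macrophages, and mice without it have weak germinal centre responses. miR-142 is made across the blood lineages. In the GRCr8 annotation Mir155 lies in its host gene Mir155hg and Mir142 lies within Tspoap1, with the myeloperoxidase gene Mpo as its next neighbour.

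Small RNA was sequenced from whole organs of Fischer 344 rats (spelled Fisher 344 in the sample labels). The labels name no treatment and no genotype beyond the strain. The 320 samples came from 16 female and 16 male rats, 4 of each sex at 2 weeks (juvenile), 6 weeks (adolescent), 21 weeks (adult) and 104 weeks (aged). Each rat gave the lymphoid organs spleen and thymus, then lung, liver, heart, kidney, adrenal, brain and muscle, and either testes or uterus, which makes 80 groups of organ, sex and age with 4 samples each. The 9 organs other than spleen and thymus are called non-lymphoid.

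Levels are given as CPM, the count of a miRNA over the summed miRNA counts of its library, on the scale of a library of 1000000 counts. In the 318 samples used those sums ran from 315550 to 10571766 counts with a median of 2848160, from 315550 to 1692126 in liver, from 1147123 to 3027439 in spleen and from 878503 to 2834510 in thymus. The 4 more abundant arms had counts in all 318 samples used, while miR-155-3p was at 0 in 176 of them and above 3 counts, the number that a count of 0 still allows, in 54. These limits cover counting error only. Group values are given as the lowest, the median and the highest sample, in this order, with both sexes of an organ and age pooled (8 samples, 7 in week-6 brain and week-104 spleen, 4 in testes and uterus).

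Some libraries stood apart. The male week-6 brain replicate 3 and the female week-104 spleen replicate 4 had been left out by the authors because they did not cluster with their organ, and they are left out here: the brain sample held 2744 CPM of miR-142-5p where its group lay between 299 and 494, and the spleen sample 11407 where its group lay between 25734 and 40100.1. In the female week-104 lung replicate 1, miR-142-5p reached 15409 CPM, above the 5754 of the next lung sample of that age. The samples numbered female week-104 replicate 1 were also the highest of their age in liver, at 10547 CPM, in adrenal, at 1788, and in spleen, at 40100.1. The same number was the lowest of 4 in uterus, at 582 CPM, and 7th and 6th of 8 in muscle and thymus, at 301 and 12767, and in spleen it had the lowest miR-150-5p and miR-155-5p of its age, 6096 and 249 CPM. The male week-21 adrenal replicate 1 had the lowest miR-150-5p and miR-142-5p of all adrenal samples, 49.9 and 84.2 CPM. The male week-104 thymus replicate 1 had the lowest miR-142-5p, miR-142-3p and miR-155-5p of all thymus samples, 8136, 515 and 273 CPM. Fits were run without the male week-104 thymus replicate 1, and without the female week-104 lung and male week-21 adrenal replicate 1 together. Age steps within an organ and differences between spleen and thymus that came to pass or no longer passed in these fits are given both ways. No fit left out the liver, adrenal or spleen sample of female week-104 replicate 1 on its own.

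Group differences come from the quasi-likelihood F-test of edgeR after TMM scaling of the libraries, and each p was adjusted (Benjamini-Hochberg) across the 616 miRNAs of its comparison. A difference with an adjusted p under 0.05 is said to pass. TMM scales each library to the bulk of its miRNAs, so a fitted log2 difference can depart from the ratio of CPM means where a few miRNAs fill a library. Samples of a group came from separate rats, whereas the organs of one age came from the same rats and were treated as independent. In these bulk samples, fewer white blood cells and less miRNA per cell cannot be told apart. The lists of cell type markers were compared by their summed CPM. The red cell and myeloid miRNAs were highest in spleen, the thymocyte miRNAs in thymus and the striated muscle miRNAs in muscle. The liver, neuron and smooth muscle miRNAs were highest in liver, brain and uterus, and the endothelial and epithelial miRNAs in lung. Some members differed from their list: miR-200a-3p and miR-429 (epithelial) and miR-181d-5p (thymocyte) were highest in brain. Of the other epithelial miRNAs, miR-200b-3p was highest in kidney, miR-203a-3p in liver and miR-205 in thymus. The red cell miR-486 was not particular to spleen, with means of 99885 CPM in spleen, 89875 in muscle and 75721 in heart. In these organs miR-451-5p averaged 14885, 110 and 1236 CPM. Sums of the red cell list are led by miR-486 and are not a measure of red cells alone.

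miR-150-5p is the more abundant arm of a miRNA that builds up in mature lymphocytes. It was highest in spleen, at 6096, 11719 and 20223 CPM over the 31 samples of all ages, followed by thymus at 1505, 2852 and 5549.8 over 32. Among non-lymphoid organs heart came next, at 534, 1385 and 2997 CPM, then lung at 420.1, 1068 and 1673 and brain at 457, 917 and 2779.7. No spleen sample overlapped a non-lymphoid one, since the highest of those was the male week-21 heart replicate 1, but the lowest thymus samples lay within the range of heart. Muscle held 301, 673 and 1362 CPM, liver 229, 563 and 1816 and adrenal 49.9, 354 and 1246. Kidney held 114, 285 and 611 CPM, uterus 110.4, 275 and 589 and testes, the lowest, 72.5, 214 and 336. By mean level miR-150-5p ranked 20 among the miRNAs of spleen and 34 among those of thymus, and both organs together held 71.2% of its CPM summed over all samples. Its other arm was low: miR-150-3p ran at 39.5, 91.8 and 196 CPM in spleen and 6.70, 36.99 and 54.1 in thymus, and its organ means elsewhere lay between 1.94 in uterus and 8.45 in lung.

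When the 11 organs were ordered by mean miR-150-5p at each age, 15 of the 40 neighbouring pairs did not pass the test. These were, at week 2 lung and heart, liver and uterus, uterus and adrenal or adrenal and kidney, at week 6 heart and lung, liver and muscle or adrenal and kidney, at week 21 thymus and heart, lung and liver, liver and muscle, muscle and adrenal or uterus and kidney and at week 104 spleen and thymus, liver and adrenal or adrenal and kidney. The order of the fitted values went against that of CPM means in 7 pairs that passed: muscle over brain at weeks 2 and 104, liver over brain at week 6, uterus over testes at weeks 6 and 21, lung over brain at week 21 and uterus over kidney at week 104. A pair that does not pass is not shown to be equal.

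miR-155-5p is the more abundant arm of a miRNA made on activation of lymphocytes and macrophages. It was of similar level in the 2 lymphoid organs and low elsewhere. Thymus held 273, 788 and 932 CPM and spleen 249, 749 and 1160.1. Heart held 30.1, 41.7 and 59.9 CPM, lung 14.6, 35.5 and 129 and kidney 17.2, 31.9 and 112. The lowest spleen or thymus sample was above every non-lymphoid sample, the highest of which was the male week-104 lung replicate 4. Testes held 17.2, 32.01 and 87.9 CPM, uterus 12.8, 28.6 and 59.5 and adrenal 9.99, 29.2 and 54.2. The lowest levels were in liver at 8.07, 21.4 and 86.3 CPM, muscle at 4.53, 11.5 and 28.4 and brain at 3.61, 7.29 and 20.2. Spleen and thymus held 86.2% of its summed CPM, and its rank by mean was 77 in spleen and 71 in thymus. miR-155-3p was close to the limit of detection: it ran at 0.964, 4.68 and 9.06 CPM in thymus and 0.520, 3.13 and 7.76 in spleen, with 1 to 22 counts per sample, and the highest mean elsewhere was 0.454 CPM in testes.

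For miR-155-5p, 14 of 40 neighbouring pairs did not pass: at week 2 heart and kidney, lung and adrenal, adrenal and muscle or muscle and liver, at week 6 heart and adrenal, adrenal and kidney, lung and liver or testes and muscle, at week 21 lung and heart, kidney and adrenal or adrenal and liver and at week 104 spleen and thymus, heart and liver or liver and adrenal. Fitted values went against CPM means in 6 pairs that passed: uterus over brain at week 2, uterus over liver at week 6, thymus over spleen at week 21, kidney over testes at week 21, testes over lung at week 104 and uterus over adrenal at week 104.

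Both arms of miR-142, the miRNA of all blood lineages, were among the abundant miRNAs of the lymphoid organs. miR-142-5p held 18739, 32881 and 44115 CPM in spleen and 8136, 33267 and 52106 in thymus, where it ranked 9 and 7 by mean. Lung held 1481, 3013 and 15409 CPM and liver 1255, 2299 and 10547. All spleen samples were above all non-lymphoid samples, while the lowest thymus sample lay below the highest lung and liver samples, which are the aged female replicate 1 of each organ. Heart held 539.7, 1722 and 3393 CPM, testes 395, 983 and 1628 and uterus 184, 715 and 2028. Kidney held 139, 771 and 2299 CPM, adrenal 84.2, 608 and 1788, brain 214, 366 and 579.9 and muscle 93.9, 301 and 577.

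miR-142-3p followed the same order of organs at a lower level, with muscle and brain exchanged at the end. Spleen held 2693, 4484 and 9694 CPM and thymus 515, 4719 and 9435, with ranks of 33 and 26. Lung held 124, 235 and 1185 CPM, liver 51.6, 154 and 925 and heart 38.7, 94.4 and 203. Again no spleen sample fell as low as a non-lymphoid one, and the lowest thymus samples, all of week 104, reached into the range of lung and liver. Testes held 26.8, 74.8 and 120.4 CPM, uterus 7.79, 39.5 and 157 and kidney 8.33, 37.1 and 147. Adrenal held 7.31, 36.2 and 107 CPM, muscle 13.1, 24.8 and 56.2 and brain 16.7, 27.4 and 52.1. Spleen and thymus held 85.7% of the summed CPM of miR-142-5p and 92.0% of that of miR-142-3p.

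Of the neighbouring pairs, 17 of 40 did not pass for miR-142-5p: at week 2 lung and liver, testes and heart, uterus and muscle, muscle and adrenal or adrenal and kidney, at week 6 lung and liver, liver and heart or adrenal and kidney, at week 21 spleen and thymus, lung and liver or liver and uterus and at week 104 spleen and thymus, lung and liver, heart and kidney, kidney and adrenal, adrenal and testes or testes and uterus. For miR-142-3p 17 of 40 did not: at week 2 lung and liver, testes and heart, adrenal and uterus or uterus and kidney, at week 6 lung and liver, liver and heart, testes and uterus or adrenal and kidney, at week 21 spleen and thymus, liver and uterus, testes and heart or adrenal and kidney and at week 104 lung and liver, heart and kidney, kidney and testes, testes and adrenal or adrenal and uterus. Fitted values that passed went against CPM means 6 times for miR-142-5p, uterus over brain at week 2, uterus over testes at week 6, muscle over brain at weeks 6, 21 and 104 and kidney over testes at week 21, and 3 times for miR-142-3p, muscle over brain at weeks 2, 21 and 104. Of the 160 neighbouring pairs of the 4 arms, 58 came to pass or no longer passed under library size scaling, 28 with DESeq2, 18 among miRNAs averaging 10 counts or more, and 3 to 15 in each of the other fits, among them 7 without the female week-104 lung and male week-21 adrenal replicate 1.

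Each lymphoid organ was set against each of the 9 non-lymphoid organs at each age, which asks how far these miRNAs mark lymphoid tissue; the 36 comparisons of an organ share its samples. Spleen was higher in 214 of 216 tests of the 6 miRNAs, where 30.5% of all tests of the 616 miRNAs had spleen higher, and thymus in 215 of 216, against 29.8%. In spleen the log2 difference (± SE) of miR-150-5p ran from 1.53 ± 0.23 against heart at week 104 to 6.34 ± 0.36 against testes at week 6, that of miR-155-5p from 2.22 ± 0.25 against kidney at week 104 to 7.87 ± 0.21 against brain at week 21. That of miR-142-5p ran from 2.11 ± 0.28 against lung at week 104 to 7.49 ± 0.21 against brain at week 6 and that of miR-142-3p from 2.57 ± 0.34 against lung at week 104 to 8.38 ± 0.29 against brain at week 6. All 144 tests of these 4 arms passed in spleen. In thymus miR-150-5p ran from 0.22 ± 0.25 against heart at week 21 to 4.79 ± 0.33 against testes at week 6, where the first did not pass (adjusted p = 0.467), and miR-155-5p from 2.73 ± 0.25 against kidney at week 104 to 8.24 ± 0.22 against brain at week 21. Thymus miR-142-5p ran from 1.60 ± 0.27 against lung at week 104 to 7.99 ± 0.22 against brain at week 6, and miR-142-3p from 1.32 ± 0.33 against lung at week 104 to 9.29 ± 0.30 against brain at week 6 (adjusted p = 0.000461 for the smaller). For miR-150-3p the range was from 2.27 ± 0.32 against lung at week 104 to 5.59 ± 0.30 against testes at week 2 in spleen, and from 1.94 ± 0.31 against lung at week 104 to 4.99 ± 0.30 against testes at week 2 in thymus. For miR-155-3p the other organ was at or under 3 counts in every sample in 34 of 36 comparisons, so no fold is given; in spleen it did not pass against liver and testes at week 104 (adjusted p = 0.115 for both). The lowest values for miR-142 and miR-155-5p were all at week 104.

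A miRNA that passed in all 36 comparisons of an organ was rarer. In spleen 27 of the 616 did so (4.38%), among them 5 of the 6 members, all but miR-155-3p. In thymus 19 did (3.08%), among them 5 of the 6, all but miR-150-5p. The 12 miRNAs that did so in both organs included miR-142-5p, miR-142-3p, miR-155-5p and miR-150-3p, and of the 16 other leukocyte miRNAs of a list chosen with the members they included miR-342-3p and miR-342-5p. The other 6 were miR-130b-3p, miR-130b-5p, miR-191a-5p, miR-191b, miR-20b-5p and a candidate on chromosome X. These counts describe the members, which were chosen with earlier results of these data known.

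**Figure D1:**
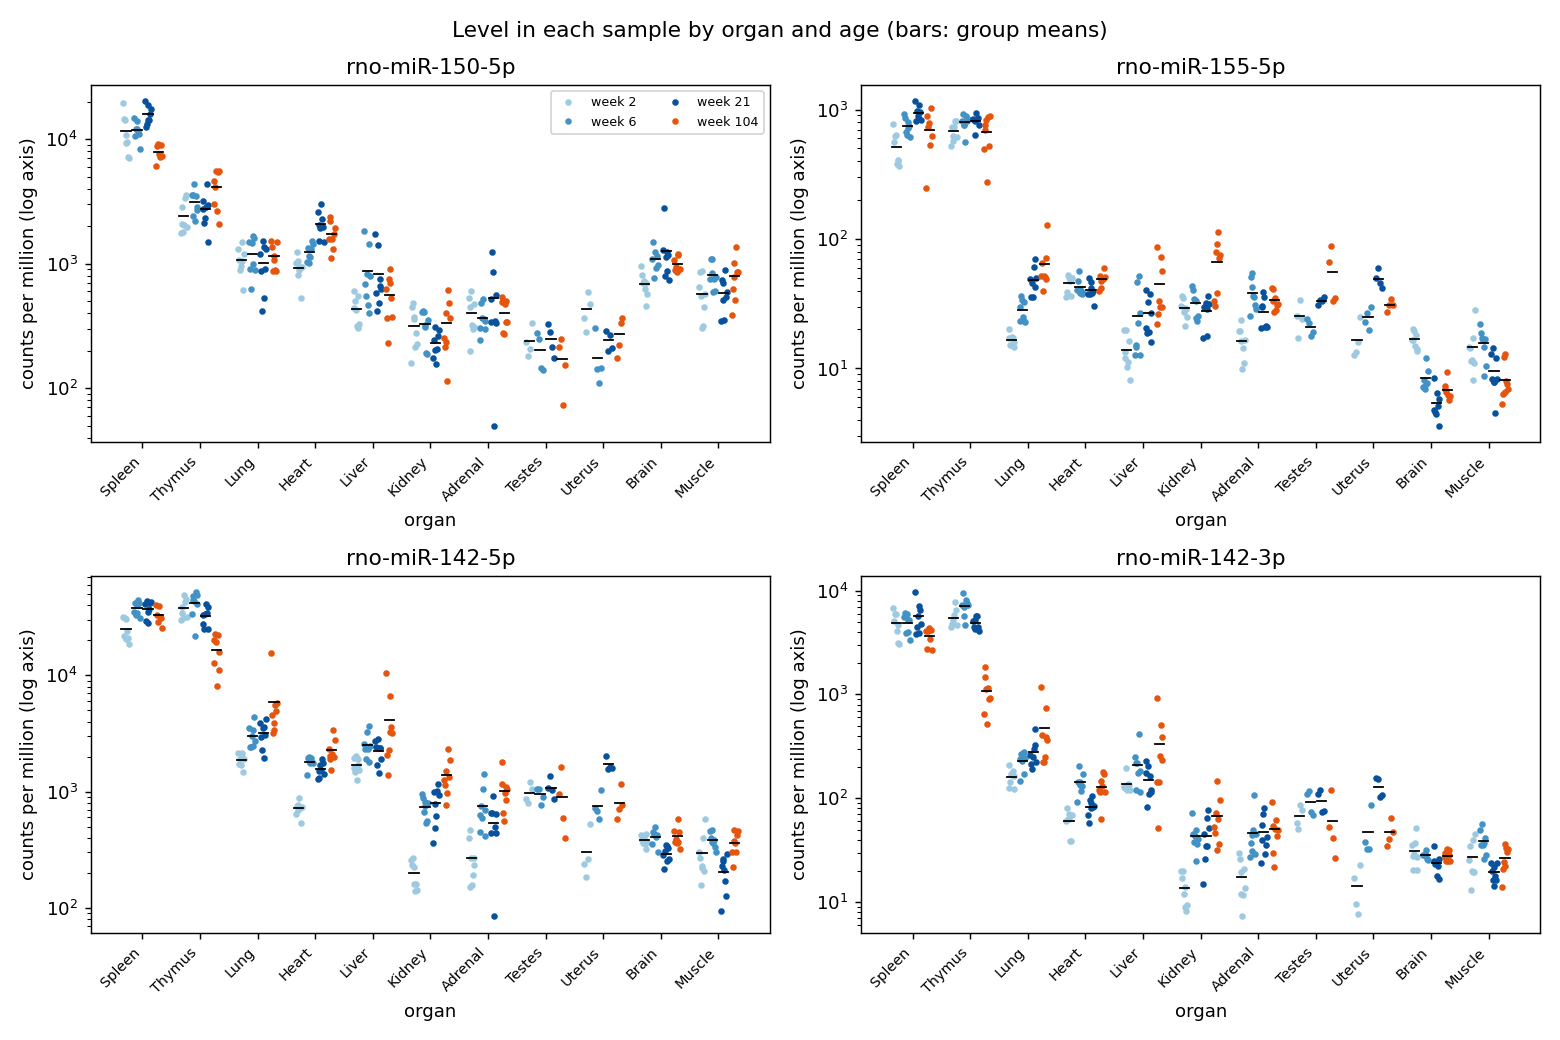
Level of the 4 more abundant arms in each of the 318 samples, as CPM on a log axis, by organ and age; bars mark group means. Every spleen sample lies above every non-lymphoid sample for each arm, and for miR-142 the aged thymus samples move down toward lung and liver.

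Spleen holds mature B and T lymphocytes and thymus immature T cells, so the 2 organs were compared with each other at each age. By the study's methods the week-2 spleens were of low RNA integrity, which applies to every week-2 value of spleen given here, and the part of this in the results was not tested. miR-150-5p in spleen was at 7052, 10113 and 19668 CPM at week 2, 8403, 11919 and 14753 at week 6, 12567, 15119 and 20223 at week 21 and 6096, 7579 and 9168 at week 104. In thymus it was at 1767, 2062 and 3538, 2205, 3168 and 4372, 1505, 2788 and 4367 and 2092, 4381 and 5549.8 CPM. The organs never overlapped, and spleen was the higher one at all 4 ages. The fitted spleen minus thymus difference was 1.31 ± 0.20 at week 2 (adjusted p = 1.64e-08), 1.55 ± 0.21 at week 6 (adjusted p = 1.13e-09) and 1.96 ± 0.26 at week 21 (adjusted p = 1.1e-09), and 0.39 ± 0.23 at week 104, which did not pass (adjusted p = 0.166). The week-104 difference passed without the male thymus replicate 1 (log2 0.54, adjusted p = 0.0412), without the female lung replicate 1 and male week-21 adrenal replicate 1, chosen after seeing the data (0.59, adjusted p = 0.0172), with DESeq2 (0.62, adjusted p = 0.00639), among miRNAs averaging 10 counts or more (0.55, adjusted p = 0.0216), with library size scaling (0.93, adjusted p = 0.00152) and without replicate 4 of every group. miR-150-3p was likewise higher in spleen, by 0.60, 0.78 and 1.01 at weeks 2, 6 and 21 (adjusted p = 0.00234, 0.00011 and 0.000163), with no overlap. At week 104 it did not pass (0.33, adjusted p = 0.404), except with library size scaling (0.86, adjusted p = 0.0263).

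miR-142-5p was at 18739, 22996 and 32004 CPM in spleen at week 2, 31024, 37843 and 44115 at week 6, 28388, 38886 and 43796 at week 21 and 25734, 31602 and 40100.1 at week 104. In thymus its levels were 29958, 36322 and 48733, 21902, 43975 and 52106, 24773, 33277 and 40922 and 8136, 17450.4 and 22726 CPM. The organs overlapped at weeks 2, 6 and 21, and at week 104 every thymus sample was below every spleen sample. miR-142-3p in spleen was at 3062, 4875 and 6819.9, 3344, 5235 and 6022, 3803, 5224 and 9694 and 2693, 4051 and 4339 CPM at the 4 ages. In thymus it was at 4497, 4983 and 7701, 4679.9, 7276 and 9435, 4121, 4766 and 5741 and 515, 1020.4 and 1843 CPM. Here too only the aged organs were apart, with thymus the lower one. The fitted spleen minus thymus difference of miR-142-5p was -1.53 ± 0.16 at week 2 and -0.50 ± 0.15 at week 6 (adjusted p = 1.02e-13 and 0.00329), that of miR-142-3p -1.11 ± 0.19 and -0.90 ± 0.20 (adjusted p = 5.61e-07 and 5.49e-05). At week 104 the sign was the opposite, 0.51 for miR-142-5p (adjusted p = 0.129) and 1.25 ± 0.33 for miR-142-3p (adjusted p = 0.0015).

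The week-21 differences of miR-142 did not pass, at -0.35 for miR-142-5p and -0.36 for miR-142-3p (adjusted p = 0.137 and 0.112), and library size scaling turned them to 0.22 and 0.24. Of the fits at this age and at week 104, that without the female lung replicate 1 and the male week-21 adrenal replicate 1 passed for miR-142-5p and miR-142-3p at week 21 (-0.44 and -0.47, adjusted p = 0.0229 and 0.0177) and for miR-142-5p at week 104 (0.68, adjusted p = 0.0133). DESeq2 also called these 3 differences (-0.59, -0.60 and 0.71), as did the fit restricted to mean counts of 10 or more (-0.72, -0.74 and 0.68), and lane as a factor called miR-142-3p at week 21 (-0.42, adjusted p = 0.0243). Library size scaling called miR-142-5p at week 104 (0.99, adjusted p = 0.00292), and at week 21 miR-142-5p passed without replicate 3 of every group and miR-142-3p without replicate 1. The lung sample was the reference library of TMM at week 104, and leaving both samples out moved the median spleen minus thymus difference of all miRNAs by 0.17 at week 104 and by -0.09 at week 21. Library size scaling in place of TMM moved that median by 0.91, 0.37, 0.56 and 0.52 at the 4 ages, and under it the differences of miR-142-3p at week 2 and of miR-142-5p at week 6 did not pass (-0.17 and -0.14, adjusted p = 0.507 and 0.458). At week 2 it made the difference of miR-142-5p smaller, at -0.59 (adjusted p = 0.00463). It made those of miR-150-5p and miR-150-3p at week 2 larger, at 2.25 and 1.54 (adjusted p = 5.24e-14 and 1.44e-10).

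miR-155-5p was at 364, 483 and 772 CPM in spleen at week 2, 608, 732 and 923 at week 6, 809, 925 and 1160.1 at week 21 and 249, 736 and 1028 at week 104. Thymus held 523, 677 and 818, 557, 816 and 919, 639, 841 and 932 and 273, 727 and 888 CPM. The organs overlapped at every age. Fitted values had thymus higher, with spleen minus thymus -1.33 ± 0.15 at week 2 (adjusted p = 1.56e-12), -0.46 ± 0.15 at week 6 (adjusted p = 0.00668), -0.37 ± 0.15 at week 21 (adjusted p = 0.0383) and -0.51 ± 0.24 at week 104 (adjusted p = 0.0781), the last not passing. Library size scaling left -0.39 at week 2 (adjusted p = 0.0412), which passed, and -0.10 at week 6, which did not. It turned the difference to 0.21 at week 21 and 0.06 at week 104, neither of which passed. The week-21 call was also lost without replicate 2 or replicate 4 of every group, and the week-104 difference passed when the left-out spleen sample was put back (-0.62, adjusted p = 0.0338). miR-155-3p had thymus higher at weeks 2 and 6 (-1.66 and -0.96, adjusted p = 1.46e-05 and 0.00221), on counts of at most 22, and library size scaling ended both calls (-0.75 and -0.60, adjusted p = 0.0572 and 0.0646). At week 21 it did not pass (-0.62, adjusted p = 0.0517) but did with DESeq2 (-0.87, adjusted p = 0.00905), lane as a factor (adjusted p = 0.0494), the replicate block (adjusted p = 0.0459), the adrenal and lung samples left out (adjusted p = 0.022), and without replicate 1 or 3, while library size scaling gave -0.04 (adjusted p = 0.93). At week 104 it passed in none of the fits.

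In all, 7 of the 24 tests had spleen higher, against 24.9% of the tests of all miRNAs, and 9 had thymus higher, against 24%. Those higher in spleen were miR-150-5p and miR-150-3p at weeks 2, 6 and 21 and miR-142-3p at week 104. Under library size scaling 10 tests had spleen and 3 had thymus higher.

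**Figure D2:**
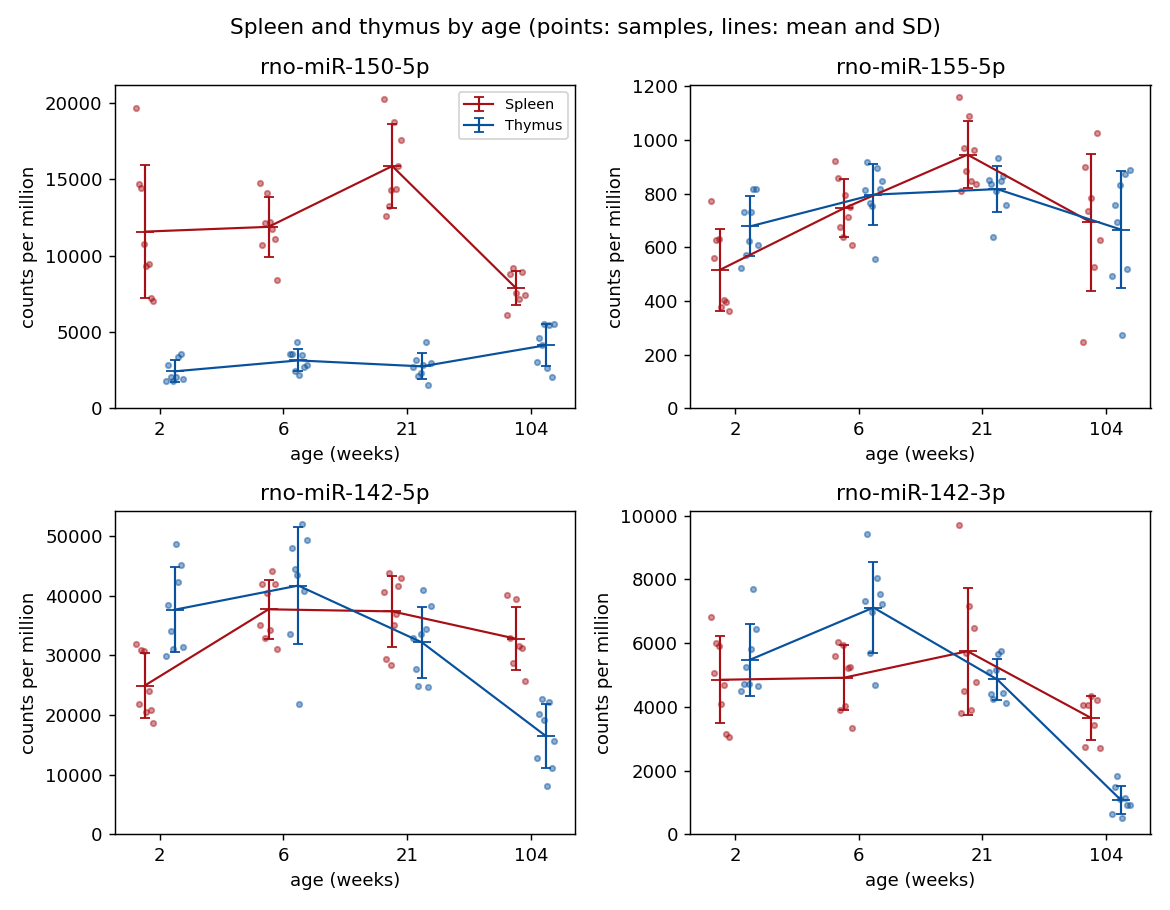
Level of the 4 more abundant arms in spleen and thymus at the 4 ages, as CPM on a linear axis from 0; points are samples, and lines join group means with bars of 1 SD. miR-150-5p of spleen stays above that of thymus. For miR-142-5p and miR-142-3p the mean of thymus lies below that of spleen at weeks 21 and 104. Only at week 104 do all thymus samples of these arms lie below all spleen samples.

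Since both arms of miR-142 come from one hairpin, their ratio within a library needs no scaling between libraries. It was computed as log2 of the 5p over the 3p count with 0.5 added to each, and spleen and thymus were compared at each age by an exact two-sided permutation test of the difference of means, adjusted over the 4 ages. In spleen the log2 ratio was 2.11, 2.36 and 2.73 at week 2, 2.65, 3.04 and 3.21 at week 6, 2.07, 2.82 and 3.29 at week 21 and 2.82, 3.20 and 3.58 at week 104. In thymus it was 2.46, 2.75 and 3.07, 2.20, 2.54 and 2.97, 2.48, 2.67 and 3.22 and 3.61, 4.03 and 4.30. The organs overlapped up to week 21, and at week 104 every thymus ratio was above every spleen ratio. The spleen minus thymus difference was -0.40 at week 2 (exact permutation p = 0.00155, adjusted 0.00311), 0.42 at week 6 (exact permutation p = 0.00404, adjusted 0.00539), 0.04 at week 21 (exact permutation p = 0.842, adjusted 0.842) and -0.79 at week 104 (exact permutation p = 0.000155, adjusted 0.000622), the last p being the smallest these numbers of samples can give. The week-2 value rests on the spleens of low RNA integrity. The 3p arm made up 12.5%, 14.6% and 13.0% of the pooled miR-142 counts of thymus at weeks 2, 6 and 21 and 6.22% at week 104, and 16.3%, 11.5%, 13.0% and 9.89% of those of spleen. The arms thus did not move in proportion: in aged thymus the 3p arm had a smaller share than at any other age.

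In the non-lymphoid organs the mean log2 ratio of miR-142 lay between 3.31, in muscle at week 21, and 4.44, in kidney at week 104, above the spleen means and the thymus means up to week 21 but on both sides of the 3.97 of aged thymus. The male week-21 adrenal replicate 1 had the lowest ratio of all kept samples, 0.06, where the median of its group was 3.80. For miR-150 the 5p arm was far in excess, with a mean log2 ratio of 6.39, 7.17, 7.30 and 7.17 in spleen and 5.69, 6.42, 6.30 and 7.29 in thymus at the 4 ages. For miR-155 the spleen means were 7.61, 7.69, 7.74 and 7.85, and the thymus means 7.41, 7.12, 7.48 and 7.67. The ratios of miR-150 and miR-155 were not tested, and outside the lymphoid organs those of miR-155 rest on 0 to 5 counts of the 3p arm per sample.

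**Figure D3:**
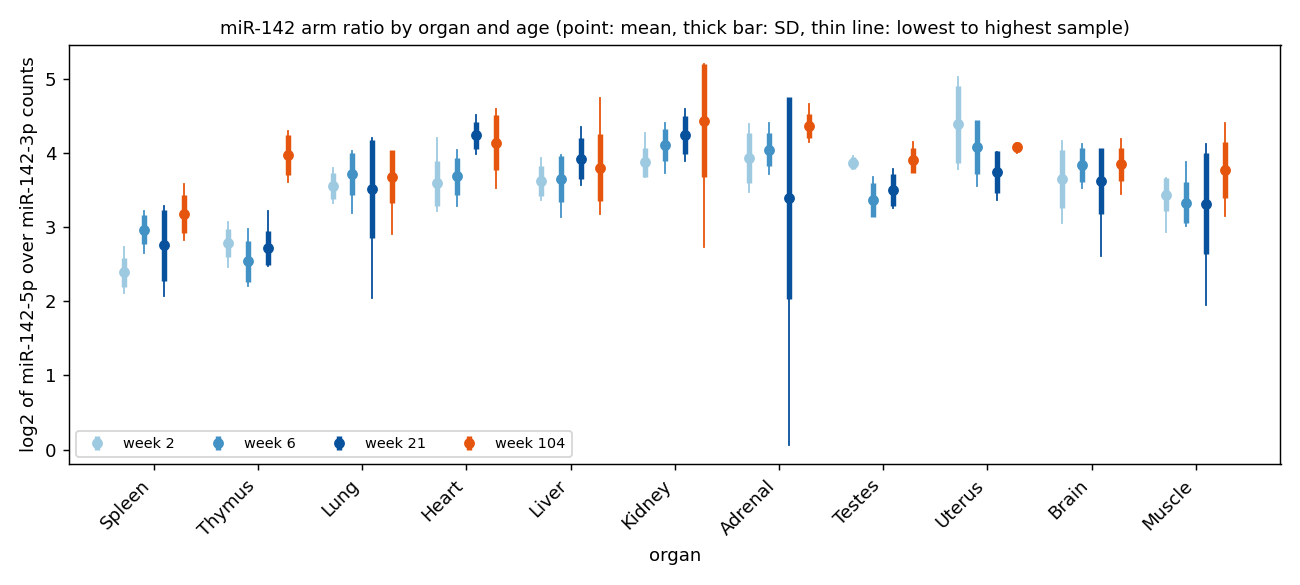
Log2 ratio of miR-142-5p to miR-142-3p counts by organ and age; points are group means, thick bars 1 SD to each side, and thin lines run from the lowest to the highest sample. The means of spleen and thymus lie below those of the other organs up to week 21, and the mean of aged thymus lies among them.

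Age steps were tested within each organ between consecutive ages, as the mean over the sexes, to see when these miRNAs change after birth; consecutive steps share the samples of the age between them. From week 2 to 6, 30 of the 66 tests of the 6 miRNAs in 11 organs rose and 2 fell, against 15.4% and 20.6% of the tests of all miRNAs. From week 6 to 21, 8 rose and 3 fell, against 7.39% and 8.94%. From week 21 to 104, 14 rose and 10 fell, against 7.38% and 8.66%. Under library size scaling the 3 steps had 18, 6 and 12 rises and 3, 8 and 8 falls, so that falls outnumbered rises from week 6 to 21, and with lane as a factor they had 25, 3 and 13 rises and 0, 2 and 9 falls. Leaving out 1 replicate number of every group gave 23 to 28, 2 to 7 and 8 to 11 rises. The falls were then 1 to 2, 1 to 4 and 7 to 8. By member, miR-142-5p rose in 9 organs and miR-142-3p in 7 in the first step, and in the last miR-142-5p rose in 7 and fell in 1, while miR-142-3p rose in 2 and fell in 3.

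In spleen 5 of 6 members rose from week 2 to 6, where 12.3% of all miRNAs rose and 20.9% fell. miR-142-5p rose by 1.02 ± 0.13 (adjusted p = 6.56e-07) on the log2 scale, with the SE after the sign ±, miR-155-5p rose by 0.98 ± 0.15 (adjusted p = 6.87e-06), miR-150-5p rose by 0.50 ± 0.10 (adjusted p = 0.000298), miR-142-3p rose by 0.46 ± 0.14 (adjusted p = 0.0118) and miR-155-3p rose by 0.81 ± 0.30 (adjusted p = 0.0381). The samples of the 2 ages overlapped for each, and the CPM means of miR-150-5p (11566 ± 4353 and 11878 ± 1975, SD, n = 8) and of miR-142-3p (4847 ± 1369 and 4911 ± 1017) were nearly level. miR-150-3p was at 98.4, 124 and 196 CPM at week 2 and 62.3, 84.7 and 96.9 at week 6 and did not pass. Library size scaling moved the median of all miRNAs by -0.40 in this step, and under it miR-150-5p (0.09, adjusted p = 0.644), miR-142-3p (0.05, adjusted p = 0.909) and miR-155-3p (0.41, adjusted p = 0.323) did not pass, so the rise common to all scalings was that of miR-142-5p and miR-155-5p. The call of miR-142-3p also ended with the left-out spleen sample put back (adjusted p = 0.0592) and without replicate 4, and that of miR-155-3p with that sample (adjusted p = 0.075), with DESeq2 (adjusted p = 0.078), with lane as a factor (adjusted p = 0.0525) and without replicate 1, 2 or 4. The week-2 side of this step is the spleens of low RNA integrity, whose part in it was not tested.

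From week 6 to 21, where 4.38% of miRNAs rose in spleen and 6.49% fell, 1 of 6 members rose. miR-150-5p rose by 0.32 ± 0.10 (adjusted p = 0.0435), a call that ended with all 320 samples (adjusted p = 0.228), lane as a factor (adjusted p = 0.0672) or the replicate block (adjusted p = 0.053) and without replicate 1, 2, 3 or 4 of every group. From week 21 to 104 in spleen 4 of 6 fell, where 2.6% of miRNAs fell and 2.76% rose. miR-150-5p fell by 1.05 ± 0.11 (adjusted p = 8.99e-08), and all 7 aged samples were below all 8 adult ones. miR-150-3p fell by 0.87 ± 0.16 (adjusted p = 0.000686), from 80.6, 100.1 and 129 to 39.5, 50.1 and 89.9 CPM, miR-142-3p fell by 0.67 ± 0.15 (adjusted p = 0.00477) and miR-155-5p fell by 0.54 ± 0.16 (adjusted p = 0.0374), each with overlap of the ages. miR-142-5p, at -0.21 ± 0.14 (adjusted p = 0.528), and miR-155-3p, at -0.71 ± 0.32 (adjusted p = 0.27), did not pass. The call of miR-155-5p ended with library size scaling (adjusted p = 0.177), miRNAs averaging 10 counts or more only (adjusted p = 0.0625) or lane as a factor (adjusted p = 0.0519) and without replicate 1, 3 or 4, and that of miR-142-3p without replicate 4.

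Markers of other cell types moved in spleen over the same ages. The summed red cell miRNAs (miR-451-5p, miR-144-3p, miR-144-5p and miR-486, the last the most abundant) were at 121545, 186463 and 233013 CPM at week 2, 79738, 128409 and 155494 at week 6, 34619, 63186 and 80505 at week 21 and 78767, 110763 and 121778 at week 104. Of these 4, 1 fell in the first step, 3 fell in the second and 2 rose in the last. From week 2 to 6, the step of the rises, the 2 smooth muscle miRNAs went from sums of 75826, 86169 and 109703 CPM to 100602, 114455 and 130834 and the more abundant, miR-143-3p, rose. The 2 endothelial miRNAs went from 14567, 21618 and 28881 to 15707, 27138 and 29699.7 CPM, and the more abundant, miR-126a-5p, rose. The 2 myeloid miRNAs, led by miR-223-3p, went from 735, 845 and 1152 to 407, 567 and 748 CPM, and miR-223-5p fell. The 7 epithelial miRNAs, led by miR-141-3p, went from 426, 1419 and 4383 to 417, 801 and 1623 CPM, and miR-205 and miR-200c-3p fell. Of the 3 thymocyte miRNAs (miR-181a-5p, miR-181b-5p and miR-181d-5p), at 32533, 44423 and 57593 and 44689, 51231 and 74757 CPM, miR-181a-5p, the most abundant, rose and miR-181d-5p fell, and of the 2 neuron miRNAs, led by miR-9a-5p and at sums of 29.7, 55.1 and 87.4 and 33.5, 47.1 and 124 CPM, miR-124-3p rose. The striated muscle and liver miRNAs had no call in this step by edgeR. In the second step miR-181d-5p and the liver miRNA miR-122-5p fell beside the red cell miRNAs. The thymocyte miRNAs of spleen summed to 29351, 38205 and 61511 CPM at week 21 and 12375, 24947 and 34479 at week 104, and 2 of 3 fell. The myeloid miRNAs summed to 393, 729 and 933 and 549, 829.8 and 1490.0 CPM, and neither passed in the last step. Every marker of these lists had a mean above 0 in both lymphoid organs, though not necessarily counts in every sample. The lowest mean was 0.649 CPM, of miR-206-3p in spleen. The part of these markers in the results of the members was not tested.

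In thymus no member passed from week 2 to 6 by edgeR, where 3.41% of miRNAs rose and 9.9% fell; 2 were higher at an unadjusted p under 0.05, and DESeq2 called 1, miR-142-3p (0.39, adjusted p = 0.0442). From week 6 to 21, where 5.52% fell and 10.9% rose, 1 of 6 fell. miR-142-3p fell by 0.47 ± 0.15 (adjusted p = 0.0317), with overlap, a call that ended with lane as a factor (adjusted p = 0.0808) and without replicate 2, 3 or 4. DESeq2 called miR-142-5p lower too in this step (-0.38, adjusted p = 0.0223). Markers of other cells moved in the same step: both endothelial miRNAs rose, led by miR-126a-5p, with sums of 2993, 4522 and 7813 CPM at week 6 and 4295, 8072 and 16325 at week 21, miR-203a-3p and miR-205 of the 7 epithelial miRNAs rose, with sums of 3480, 5470.1 and 6026 and 5198, 7368 and 8245, and of the 2 smooth muscle miRNAs, led by miR-143-3p, miR-145-5p rose, with sums of 71496, 86454 and 163428 and 89770.1, 121051 and 167921. None of the 3 thymocyte miRNAs passed, at sums of 232847, 410430 and 441487 and 262698, 330331 and 401915 CPM, and the part of these shifts was not tested. The last step was the large one: from week 21 to 104, 4 of 6 fell, where 21.6% of miRNAs fell and 19.6% rose. miR-142-3p fell by 2.58 ± 0.16 (adjusted p = 1.61e-14) and miR-142-5p fell by 1.37 ± 0.15 (adjusted p = 3.53e-09), each with every aged sample below every adult one. miR-155-5p fell by 0.69 ± 0.14 (adjusted p = 0.000167) and miR-155-3p fell by 0.77 ± 0.30 (adjusted p = 0.0388), with overlap. miR-150-5p was at 0.21 ± 0.17 (adjusted p = 0.366) and miR-150-3p at -0.53 ± 0.24 (adjusted p = 0.0815), neither passing, though DESeq2 called miR-150-5p higher (0.44, adjusted p = 0.0142).

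Without the male aged replicate 1 the thymus steps of miR-142-5p, miR-142-3p and miR-155-5p passed as before, and that of miR-155-3p did not (-0.72, adjusted p = 0.0689), nor did it with DESeq2 (-0.53, adjusted p = 0.196) or without replicate 1, 2, 3 or 4 of every group. Library size scaling moved the median of all miRNAs by 0.35 in this step, and under it the fall of miR-155-5p (-0.29, adjusted p = 0.182) and of miR-155-3p (-0.38, adjusted p = 0.409) did not pass, while both arms of miR-142 did.

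The levels of the cell type markers in thymus differed at week 104. The 3 thymocyte miRNAs summed to 262698, 330331 and 401915 CPM at week 21 and 14816, 71594 and 110561 at week 104, without overlap, and all 3 fell; miR-181a-5p, the most abundant and a regulator of T cell receptor sensitivity, fell by 2.76 (adjusted p = 6.07e-09). The 4 red cell miRNAs, led by miR-486, summed to 1156, 1580.0 and 5303 and 6286, 15147 and 93919 CPM and all 4 rose. Both endothelial miRNAs rose, with sums of 4295, 8072 and 16325 and 9242, 20718 and 29035 CPM, led by miR-126a-5p. Of the 7 epithelial miRNAs, led by miR-141-3p, 5 rose, with sums of 5198, 7368 and 8245 and 3102, 16774 and 22073 CPM. In the same step the arms of miR-142 and miR-155 fell, those of miR-155 with overlap of the ages, and miR-150-5p did not pass. The 2 myeloid, 2 smooth muscle, 4 striated muscle and 1 liver miRNAs had no call in this step by edgeR, at sums of 99.7, 197 and 286, 108837, 129228 and 166705, 82.4, 127 and 980.2 and 3.85, 6.20 and 22.8 CPM at week 104, and of the 2 neuron miRNAs miR-124-3p fell, with a sum of 49.3, 61.8 and 107. The part of these shifts in the falls of miR-142 and miR-155 was not tested.

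A list of 16 other leukocyte miRNAs was followed beside the members. From week 21 to 104 in thymus 13 of the 16 fell and none rose, where 21.6% of all miRNAs fell and 19.6% rose. These 13 are not independent, since they include both arms of miR-342, several miR-181 miRNAs and several of the miR-17~92 cluster. The median log2 change of the 16 was -1.44, and that of all miRNAs 0.10. miR-17-5p, of the miR-17~92 cluster active in dividing lymphoid precursors, fell by 2.17 (adjusted p = 1.61e-14), miR-92a-3p of the same cluster fell by 1.28 (adjusted p = 5.2e-07) and miR-342-3p fell by 0.90 (adjusted p = 2.45e-06). The smallest of the 13 falls was that of miR-21-5p, by 0.36 (adjusted p = 0.0373). This fall is relative to other miRNAs: its mean CPM was 16096 at week 21 and 16504 at week 104. The 3 that did not pass were miR-223-3p, miR-146a-5p and miR-146b-5p, at 0.02, 0.36 and 0.10. In the same step in spleen 1 rose and 4 fell, where 2.76% of all miRNAs rose and 2.6% fell. The median of the 16 was -0.37, and that of all miRNAs -0.03. In spleen miR-21-5p rose by 0.51 (adjusted p = 0.045) and miR-181a-5p fell by 0.92 (adjusted p = 0.00774). From week 2 to 6, 3 of 16 rose and 3 fell in spleen, where 12.3% of all miRNAs rose and 20.9% fell. In thymus 1 rose and none fell, where 3.41% of all miRNAs rose and 9.9% fell. The 1 was miR-223-3p, which rose by 1.00 (adjusted p = 4.13e-06). From week 6 to 21, 2 fell and none rose in spleen, where 6.49% of all miRNAs fell and 4.38% rose. In thymus 5 fell and 2 rose, where 5.52% of all miRNAs fell and 10.9% rose. The 2 were miR-146a-5p, which rose by 1.16 (adjusted p = 0.000346), and miR-146b-5p, which rose by 0.62 (adjusted p = 0.0364). None of the 16 was at 0 in either organ, and 3 of them are also thymocyte and 1 also a myeloid marker.

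Whether an age step differed between thymus and spleen was tested in one fit of both organs, as the thymus step minus the spleen step. In all, 4 of 18 tests passed. From week 21 to 104, where 27.4% of all miRNAs passed, 3 of 6 did: miR-142-3p at -1.74 ± 0.23 (adjusted p = 3.23e-08), miR-142-5p at -0.98 ± 0.22 (adjusted p = 0.000248) and miR-150-5p at 1.44 ± 0.22 (adjusted p = 9.28e-07). miR-142-3p fell in both organs, further in thymus, miR-142-5p fell in thymus and did not pass in spleen, and miR-150-5p fell in spleen and did not pass in thymus. The steps of miR-155-5p in this interval, each a fall, did not differ detectably, at 0.03 ± 0.23 (adjusted p = 1). From week 2 to 6, where 11.9% passed, 1 of 6 did, miR-142-5p at -0.61 ± 0.21 (adjusted p = 0.0466). That call ended with library size scaling (-0.46, adjusted p = 0.173), with the left-out spleen sample put back (adjusted p = 0.115), with the replicate block (adjusted p = 0.0505) and without replicate 2 or 4, and it rests on the week-2 spleens of low RNA integrity. From week 6 to 21, where 4.38% passed, edgeR called none of the 6, of which 2 had an unadjusted p under 0.05 and DESeq2 called 2, miR-150-5p (-0.54, adjusted p = 0.0288) and miR-142-3p (-0.67, adjusted p = 0.00619). DESeq2 called 7 of the 18 in all, the 4 named, these 2 and miR-155-5p from week 2 to 6 (-0.55, adjusted p = 0.0221).

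Outside the lymphoid organs the calls of the first step were nearly all rises, most of them of miR-142. In heart miR-142-5p was at 539.7, 728 and 884 CPM at week 2, 1386, 1810.1 and 1988 at week 6, 1288, 1528 and 1904 at week 21 and 1540.3, 2061 and 3393 at week 104. It rose by 1.86 ± 0.11 (adjusted p = 2.65e-16) in the first step, without overlap, and rose by 0.38 ± 0.11 (adjusted p = 0.0322) in the last, with overlap. miR-142-3p was at 38.7, 62.9 and 81.3, 93.3, 139 and 203, 57.4, 83.5 and 105 and 63.5, 126 and 178 CPM at the 4 ages, and rose by 1.78 ± 0.15 (adjusted p = 3.78e-12) without overlap, then fell by 0.60 ± 0.14 (adjusted p = 0.00142) and rose by 0.48 ± 0.14 (adjusted p = 0.0479) with overlap. Heart miR-150-5p was at 534, 939.6 and 1243, 1005, 1228 and 1512, 1484, 1993 and 2997 and 1121, 1658 and 2352 CPM. It rose by 0.96 ± 0.13 (adjusted p = 3.6e-07) and again rose by 0.94 ± 0.13 (adjusted p = 1.17e-06), then fell by 0.43 ± 0.13 (adjusted p = 0.0486), with overlap at each step. miR-155-5p rose by 0.43 ± 0.13 (adjusted p = 0.00852) and miR-150-3p rose by 0.63 ± 0.23 (adjusted p = 0.0256); the first turned to -0.10 under library size scaling (adjusted p = 0.567), the other did not pass under it (0.12, adjusted p = 0.728), and neither passed with DESeq2 (0.27 and 0.48, adjusted p = 0.0523 and 0.114), nor without replicate 1, 2 or 3 for the first and without replicate 1, 2, 3 or 4 for the other. The last-step calls in heart ended with lane as a factor for miR-142-5p and miR-150-5p (adjusted p = 0.138 and 0.161), with library size scaling for miR-150-5p (-0.28, adjusted p = 0.301) and with the replicate block for miR-142-3p and miR-150-5p (adjusted p = 0.0548 and 0.0684). They also ended without replicate 1, 2 or 4 for miR-142-5p and miR-150-5p and without replicate 1, 2 or 3 for miR-142-3p.

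In kidney miR-142-5p was at 139, 193 and 266 CPM at week 2, 532, 773 and 956 at week 6, 363, 858 and 1153 at week 21 and 759, 1294 and 2299 at week 104. It rose by 1.83 ± 0.15 (adjusted p = 1.68e-12) in the first step, without overlap, and rose by 0.79 ± 0.15 (adjusted p = 0.000267) in the last. miR-142-3p rose by 1.62 ± 0.24 (adjusted p = 4.85e-07) and rose by 0.71 ± 0.22 (adjusted p = 0.0307) in the same steps, the later call ending with library size scaling (adjusted p = 0.0793) and without replicate 1, 3 or 4. miR-155-5p of kidney was at 21.4, 28.9 and 36.3, 23.4, 33.4 and 43.1, 17.2, 29.7 and 36.5 and 30.6, 73.03 and 112 CPM, and rose by 1.19 ± 0.16 (adjusted p = 1.72e-06), with overlap. miR-150-3p rose by 1.43 ± 0.34 (adjusted p = 0.00381) on at most 14 counts per sample, which did not pass with lane as a factor (adjusted p = 0.0627) or without replicate 3. In adrenal miR-142-5p was at 149.9, 249.7 and 470.0, 417, 660.4 and 1404, 84.2, 569 and 906 and 556, 1014 and 1788 CPM and rose by 1.66 ± 0.24 (adjusted p = 1.7e-06) and rose by 0.91 ± 0.23 (adjusted p = 0.00644) in the first and last steps, with overlap. Adrenal miR-155-5p was at 9.99, 16.4 and 23.7 CPM at week 2 and 25.4, 35.9 and 54.2 at week 6, without overlap, and rose by 1.38 ± 0.18 (adjusted p = 3.61e-07); miR-142-3p rose by 1.56 ± 0.30 (adjusted p = 0.000106). From week 6 to 21 adrenal miR-150-5p rose by 0.69 ± 0.22 (adjusted p = 0.0308), a call that ended with library size scaling (log2 0.42, adjusted p = 0.365), miRNAs averaging 10 counts or more only (adjusted p = 0.0608) or lane as a factor (adjusted p = 0.0821) and without replicate 2, 3 or 4.

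Lung was the non-lymphoid organ with the highest mean CPM of both miR-142 arms. Its difference from liver passed only for miR-142-3p at week 21. Lung held miR-142-5p at 1481, 1905 and 2163 CPM at week 2, 2396, 2849 and 4386 at week 6, 1924, 3287 and 4166 at week 21 and 3199.8, 4743 and 15409 at week 104. It rose by 0.87 ± 0.20 (adjusted p = 0.000758) in the first step, without overlap. In the last step it rose by 0.73 ± 0.20 (adjusted p = 0.0214), but without the female aged replicate 1 and the male adult adrenal replicate 1 the step was 0.40 and did not pass (adjusted p = 0.0532), nor did it without replicate 1 or 2 of every group. miR-155-5p of lung was at 14.6, 16.5 and 20.2, 22.8, 27.5 and 36.02, 35.4, 47.7 and 69.7 and 39.7, 52.2 and 129 CPM, and rose by 0.94 ± 0.16 (adjusted p = 2.47e-05) without overlap and rose by 0.95 ± 0.16 (adjusted p = 3.9e-05) with overlap. miR-142-3p rose by 0.69 ± 0.23 (adjusted p = 0.0173) and miR-150-3p rose by 0.66 ± 0.21 (adjusted p = 0.0118), neither of which passed under library size scaling (adjusted p = 0.135 and 0.098), nor the former with lane as a factor (adjusted p = 0.0802), nor either without replicate 3 or 4. In liver 3 members rose from week 2 to 6: miR-150-5p, from 303, 432 and 601 to 403, 744 and 1816 CPM, rose by 1.12 ± 0.27 (adjusted p = 0.000863), miR-155-5p rose by 1.02 ± 0.30 (adjusted p = 0.00756) and miR-142-5p rose by 0.70 ± 0.24 (adjusted p = 0.022), all with overlap. With lane as a factor the first 2 did not pass (0.60 and 0.86, adjusted p = 0.203 and 0.167), and under library size scaling the third did not (adjusted p = 0.0934). The call of miR-155-5p also ended without replicate 4 and that of miR-142-5p without replicate 2 or 4. In the later steps of liver edgeR called none, where 3 of 12 tests had an unadjusted p under 0.05, all from week 21 to 104, and DESeq2 called none.

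Of the non-lymphoid organs, brain was the one in which miR-155-5p fell by edgeR with TMM and all 318 samples used. Other settings called it lower from week 6 to 21 in 2 more organs. These were muscle with library size scaling (-0.74, adjusted p = 0.0146) and adrenal without the male week-21 adrenal and female week-104 lung replicate 1 (-0.32, adjusted p = 0.0326). In brain miR-155-5p was at 13.7, 16.6 and 20.2 CPM at week 2, 6.97, 7.75 and 12.01 at week 6, 3.61, 4.98 and 8.45 at week 21 and 5.73, 6.42 and 9.45 at week 104. It fell by 0.71 ± 0.15 (adjusted p = 0.000215), without overlap, and fell by 0.46 ± 0.15 (adjusted p = 0.0371), with overlap. With the left-out brain sample put back the first step turned to 0.19 and did not pass (adjusted p = 0.68), with lane as a factor neither passed (adjusted p = 0.195 and 0.751), and the second also failed with DESeq2 (adjusted p = 0.101) and without replicate 1, 3 or 4. miR-150-5p of brain was at 457, 698 and 959, 769.9, 1088 and 1492, 744, 1153 and 2779.7 and 863, 928 and 1185 CPM and rose by 0.93 ± 0.17 (adjusted p = 3.66e-05), a call that ended with lane as a factor (adjusted p = 0.0831). miR-142-5p rose by 0.37 ± 0.12 (adjusted p = 0.0116) and rose by 0.46 ± 0.11 (adjusted p = 0.0211); the first ended with library size scaling (log2 0.09, adjusted p = 0.586), miRNAs averaging 10 counts or more only (log2 0.23, adjusted p = 0.0817) or lane as a factor (adjusted p = 0.134) and without replicate 1, 2 or 3, the second with the left-out brain sample (adjusted p = 0.547) and without replicate 1, 2 or 3. In muscle miR-150-5p was at 301, 557 and 872, 590.2, 765 and 1099, 346, 564 and 892 and 388, 822 and 1362 CPM and rose by 0.87 ± 0.19 (adjusted p = 0.000227) in the first step. miR-142-5p rose by 0.72 ± 0.20 (adjusted p = 0.0038) and miR-142-3p rose by 0.82 ± 0.21 (adjusted p = 0.00157) in the same step, neither passing under library size scaling (0.40 and 0.51, adjusted p = 0.147 and 0.0575) or without replicate 3. From week 21 to 104 in muscle miR-142-5p rose by 0.90 ± 0.20 (adjusted p = 0.0016) and miR-150-5p rose by 0.54 ± 0.19 (adjusted p = 0.0456), the latter not passing with library size scaling, DESeq2, the filter on a mean count of 10, or lane as a factor (adjusted p = 0.165, 0.148, 0.0831 and 0.662), nor without replicate 2, 3 or 4.

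Uterus and testes have 4 samples at each age, which are given one by one. In uterus miR-142-5p was at 184, 236, 261 and 521 CPM at week 2, 582, 686, 724 and 1022 at week 6, 1566, 1608, 1639 and 2028 at week 21 and 582, 705, 759 and 1151 at week 104. Every week-6 sample was above every week-2 sample, and every week-21 sample above every week-6 sample. It rose by 1.88 ± 0.23 (adjusted p = 5.28e-06) and rose by 1.12 ± 0.23 (adjusted p = 0.00303), the second call ending with lane as a factor (adjusted p = 0.0557) and without replicate 2. Every week-104 sample was below every week-21 sample too, but the fitted step of -0.63 ± 0.23 (adjusted p = 0.074) did not pass, while with library size scaling it did (log2 -1.10, adjusted p = 0.00935). miR-142-3p was at 7.79, 9.69, 17.1 and 23.04 CPM at week 2, 32.6, 32.6, 38.5 and 86.9 at week 6, 102, 107, 152 and 157 at week 21 and 34.999, 40.5, 47.4 and 65.4 at week 104. It rose by 2.19 ± 0.32 (adjusted p = 3.52e-05), rose by 1.41 ± 0.30 (adjusted p = 0.00476) and then fell by 0.98 ± 0.30 (adjusted p = 0.0361), with no overlap at any step; the second rise did not pass without replicate 2, and the fall did not pass with lane as a factor (adjusted p = 0.0924) or without replicate 1, 2 or 3. miR-155-5p rose by 1.14 ± 0.22 (adjusted p = 0.000539) and rose by 0.91 ± 0.21 (adjusted p = 0.00972), the first not passing under library size scaling (0.58, adjusted p = 0.125) and the second with lane as a factor (adjusted p = 0.0765) or without replicate 2 or 3. miR-150-5p fell by 0.74 ± 0.25 (adjusted p = 0.0244), from 281, 367, 476 and 589 to 110.4, 142.5, 146 and 304 CPM, and did not pass with lane as a factor (adjusted p = 0.0821) or without replicate 2, 3 or 4.

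In testes miR-155-5p was at 17.2, 24.3, 25.6 and 33.9 CPM at week 2, 17.7, 19.1, 22.4 and 24.3 at week 6, 31.1, 32.9, 33.7 and 35.4 at week 21 and 32.97, 35.1, 66.1 and 87.9 at week 104. It rose by 0.95 ± 0.26 (adjusted p = 0.0485), without overlap, a call that ended with library size scaling (adjusted p = 0.289), lane as a factor (adjusted p = 0.256) or the replicate block (adjusted p = 0.0875) and without replicate 1, 2, 3 or 4. It then rose by 1.96 ± 0.24 (adjusted p = 1.82e-06), with overlap. In this last step miR-142-5p rose by 0.98 ± 0.27 (adjusted p = 0.00519) and miR-150-5p rose by 0.68 ± 0.23 (adjusted p = 0.0211) relative to other miRNAs, while in CPM miR-142-5p went from 857, 1022, 1063 and 1347 to 395, 592, 944 and 1628 and miR-150-5p from 176, 215, 285 and 325 to 72.5, 154.5, 212 and 246. Library size scaling moved the median of all testis miRNAs by -1.24 in that step, turned miR-142-5p to -0.27 and miR-150-5p to -0.55 (adjusted p = 0.533 and 0.208), and left miR-155-5p at 0.73, which did not pass (adjusted p = 0.0524). The call of miR-150-5p also ended among miRNAs averaging 10 counts or more and with lane as a factor (adjusted p = 0.0517 and 0.0699), and without replicate 1, 2 or 4. The direction of the first 2 in aged testes thus depends on the scaling. The study reports that its week-6 and week-21 testis libraries, unlike most others, held mainly reads of piRNA, another small RNA. Summed over the 4 samples, miR-155-5p had 84 counts at week 6 and 165 at week 21. The part of this in the testis steps was not tested. Library size scaling also moved the median by -0.52 in the first step of heart, -0.51 in that of uterus, -0.46 in the last of uterus and -0.54 in the second of muscle, and by smaller amounts in the other steps.

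Some age steps that did not pass in the fits above passed under another setting, 29 in all. Without the male week-21 replicate 1 of adrenal and the female week-104 replicate 1 of lung, adrenal miR-155-5p passed from week 6 to 21 (-0.32, adjusted p = 0.0326) and from week 21 to 104 (0.41, adjusted p = 0.00581), where with them it had not (-0.04, adjusted p = 0.939, and 0.13, adjusted p = 0.697). Lung miR-142-3p then passed from week 6 to 21 (0.43, adjusted p = 0.0492), where with them it had not (0.43, adjusted p = 0.18). With the left-out brain sample put back, brain miR-142-3p passed from week 2 to 6 (1.17, adjusted p = 0.0124) and from week 6 to 21 (-1.13, adjusted p = 0.0402), where without it the steps were 0.14, adjusted p = 0.433, and -0.10, adjusted p = 0.661. The week-6 to 21 step of brain miR-142-5p passed with that sample (-1.11, adjusted p = 0.018), with library size scaling (-0.47, adjusted p = 0.00583) and with DESeq2 (-0.30, adjusted p = 0.0495), but not in the edgeR fit without it (-0.30, adjusted p = 0.0764). In liver from week 21 to 104, lane as a factor called miR-142-5p (0.86, adjusted p = 0.00606), miR-142-3p (1.17, adjusted p = 0.00213) and miR-155-5p (0.99, adjusted p = 0.0395) higher and miR-150-5p lower (-0.84, adjusted p = 0.0168). Library size scaling called the first 2 as well (0.89, adjusted p = 0.0345, and 1.16, adjusted p = 0.0351). Liver miR-142-3p passed from week 2 to 6 with lane as a factor (1.13, adjusted p = 0.0144) and among miRNAs averaging 10 counts or more (0.86, adjusted p = 0.0356). In muscle from week 6 to 21, library size scaling called miR-142-5p (-0.90, adjusted p = 0.000922), miR-142-3p (-0.97, adjusted p = 0.000538), miR-155-5p (-0.74, adjusted p = 0.0146) and miR-150-3p (-1.23, adjusted p = 0.0119) lower, the last also with lane as a factor (-1.27, adjusted p = 0.0455). The same scaling called miR-150-3p of spleen lower from week 2 to 6 (-0.69, adjusted p = 0.0019), and from week 21 to 104 miR-150-5p of thymus higher (0.59, adjusted p = 0.0223) and miR-155-3p of uterus lower, on few counts (adjusted p = 0.0324). Thymus miR-150-3p passed from week 21 to 104 with lane as a factor (-0.73, adjusted p = 0.0306) and among miRNAs averaging 10 counts or more (-0.56, adjusted p = 0.0485), which also called miR-142-3p of thymus from week 2 to 6 (0.44, adjusted p = 0.039). DESeq2 called miR-150-5p of kidney from week 21 to 104 (0.49, adjusted p = 0.0367). Without replicate 1, 3 or 4 of every group, 9, 1 and 4 steps came to pass.

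Sex was tested as female minus male, averaged over the 4 ages, in the 9 organs both sexes have. edgeR called none of 54 tests of the members, against 1.39% of all miRNAs; 3 had an unadjusted p under 0.05, and DESeq2 called none. The 3 were miR-150-5p in spleen, at 13032 ± 3764 CPM in 15 female and 10875 ± 3876 in 16 male samples (SD; log2 0.21, unadjusted p = 0.00845), in brain, at 1098 ± 501 CPM in 16 female and 906 ± 248 in 15 male samples (0.24, unadjusted p = 0.0468), and miR-142-3p in spleen, at 5318 ± 1651 CPM in 15 female and 4360.2 ± 1219.5 in 16 male samples (0.22, unadjusted p = 0.0436). All 3 were higher in females by means. The SDs were larger than the differences, but they pool the 4 ages and so hold changes with age too, whereas the test averages over ages. The female brain values include the week-21 replicate 2, at 2779.7 CPM, where the others of its age lay between 744 and 1295. miR-155-5p of adrenal was at 32.2 ± 11.7 CPM in 16 female and 25.5 ± 9.09 in 16 male samples, a difference of 0.14 (adjusted p = 0.67). Without the male adult replicate 1 of adrenal and the aged female lung sample it was 0.31 and passed (adjusted p = 0.00886), as it did without replicate 1 of every group (0.34, adjusted p = 0.0113). Differences of an age step between the sexes were called in none of 162 tests by edgeR or DESeq2, against 0.427% of all miRNAs, with 18 at an unadjusted p under 0.05 and the smallest adjusted p at 0.128, for miR-150-5p in heart from week 2 to 6 (female minus male -0.83).

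To describe which miRNAs share the pattern of a member, Pearson's r was taken over the 44 means of organ and age, on log2(CPM + 1), among 387 miRNAs with a mean of at least 10 CPM. The points share rats and lanes, and lymphoid against non-lymphoid groups sets much of each value, so r is also given over the 36 non-lymphoid groups, and no p. miR-142-5p was most like miR-142-3p (0.99, and 0.97 without the lymphoid groups), then miR-155-5p (0.92 and 0.63) and miR-147 (0.89 and 0.81). miR-142-3p was most like miR-142-5p, miR-155-5p (0.92 and 0.55) and miR-150-3p (0.88 and 0.37). The arms of miR-142 kept their likeness outside the lymphoid organs, and most other pairs did not. miR-155-5p was most like miR-142-5p, miR-142-3p and miR-150-3p (0.84 and 0.03). miR-150-5p was most like its other arm (0.92 and 0.75), miR-191a-5p (0.80 and 0.30) and miR-142-3p (0.78 and 0.27). miR-150-3p was most like miR-150-5p, miR-191a-5p (0.89 and 0.40) and miR-142-3p, and miR-155-3p was most like miR-155-5p (0.94 and 0.51), miR-142-3p (0.90 and 0.31) and miR-142-5p (0.88 and 0.34). miR-150-5p and miR-155-5p had r = 0.70 over all groups and -0.18 over the non-lymphoid ones, so beyond their shared height in spleen and thymus their levels did not run together.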

How the data were processed

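The authors trimmed reads with fastp, aligned those of 16 to 35 bases with Bowtie to the known miRNAs of miRBase (rn7 served for other reads), and deposited a table of counts per miRNA, from which miRNAs averaging under 1 count per library had been removed. The deposited counts were used as they are; CPM was computed here from each library's total. The 2 samples the authors removed were left out. Members were all miRNAs of the 3 hairpins; members and lists were chosen with earlier results of these data known, and the rule for naming miRNAs took the members in every comparison, 16 listed leukocyte miRNAs and the 3 miRNAs most like each member.

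Tests used edgeR 4.0.16 (quasi-likelihood, TMM) in R 4.3.3, with Benjamini-Hochberg adjustment over 616 miRNAs per comparison: organs within an age, and age and sex within an organ. No miRNA was filtered out. Python 3.11.15, NumPy 2.4.6, pandas 2.3.3, SciPy 1.17.1 and matplotlib 3.10.9 were used. Of 12 alternatives to these fits, 11 were planned: library size scaling, DESeq2 1.42.0, only miRNAs averaging 10 counts or more, the full 320 samples, lane, a replicate block, each of 4 replicates left out, and the male week-104 thymus replicate 1 left out. The other, chosen after seeing the data, left out the male week-21 adrenal replicate 1 and the female week-104 lung replicate 1. Planned for single values were 5 counts added in the arm ratio, and for likeness log2(CPM + 10), Spearman's rho and the 9 non-lymphoid organs alone.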

Additional observations from a re-analysis of the deposited data

Results flagged for a closer look

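Dixon's test at 95% found one sample far from the others in 22 of 258 groups of member, organ and age (8.53%), on log2(CPM + 1), in 20 libraries. Chance gives about 1 in 20 groups. The 5 members other than miR-155-3p gave 11 in 220 groups, which is that rate. miR-150-5p stood apart in the male week-21 adrenal replicate 1, at 49.9 CPM where the others lay between 336 and 1246 and the female week-21 brain replicate 2, at 2779.7 CPM where the others lay between 744 and 1295. miR-150-3p stood apart in the female week-6 muscle replicate 3, at 1.01 CPM where the others lay between 3.19 and 6.83. miR-155-5p stood apart in the male week-6 thymus replicate 1, at 557 CPM where the others lay between 756 and 919. miR-142-5p stood apart in the male week-21 adrenal replicate 1, at 84.2 CPM where the others lay between 442 and 906, the female week-6 heart replicate 1, at 1386 CPM where the others lay between 1754 and 1988 and the female week-104 lung replicate 1, at 15409 CPM where the others lay between 3199.8 and 5754. miR-142-3p stood apart in the male week-6 adrenal replicate 2, at 107 CPM where the others lay between 27.2 and 49.8, the female week-104 heart replicate 4, at 63.5 CPM where the others lay between 115 and 178, the female week-2 liver replicate 4, at 197 CPM where the others lay between 121 and 139 and the female week-6 uterus replicate 4, at 86.9 CPM where the others lay between 32.6 and 38.5.

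miR-155-3p stood apart in the female week-2 adrenal replicate 2 (0.588 CPM), the female week-2 brain replicate 2 (0.302 CPM), the male week-104 brain replicate 2 (0.337 CPM), the male week-21 kidney replicate 3 (0.521 CPM), the female week-2 liver replicate 4 (0.859 CPM), the male week-21 liver replicate 2 (1.45 CPM), the male week-2 muscle replicate 2 (0.359 CPM), the male week-21 muscle replicate 4 (0.316 CPM), the male week-6 testes replicate 4 (0.956 CPM), the male week-104 testes replicate 1 (1.12 CPM) and the female week-104 uterus replicate 3 (0.121 CPM). These values rest on 1 to 5 counts. In 9 of these 11 groups every other sample was at 0, where any count passes the test, so nothing is read from them.

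An age step differed between thymus and spleen, by a test of the difference, for 4 results: the thymus step minus the spleen step was -0.61 for miR-142-5p from week 2 to 6, and from week 21 to 104 it was -0.98 for miR-142-5p, 1.44 for miR-150-5p and -1.74 for miR-142-3p. The first of these (adjusted p = 0.0466) did not pass with library size scaling, with all 320 samples, with the replicate block or without replicate 2 or 4 of every group.

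The male week-6 brain replicate 3, which was left out of the comparisons, held more of 4 members than any other brain sample of its age: 71.5 CPM of miR-155-5p (others 6.97 to 12.01), 0.913 CPM of miR-155-3p (others 0 to 0), 2744 CPM of miR-142-5p (others 299 to 494) and 298 CPM of miR-142-3p (others 25.8 to 31.5). The cause was not tested.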

How the results depend on the processing

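Of 1100 refits of the named results, 915 kept their direction and their side of the threshold, 157 kept their direction and no longer passed, 20 newly passed and 8 changed sign. Library size scaling ended 30 calls, 4 of them with a change of sign, lane as a factor 22, DESeq2 and all 320 samples 6 and 6, the filter on a mean count of 10 and the replicate block 5 and 5, the samples left out after seeing the data 1, the aged thymus sample 1, and leaving out replicate 1, 2, 3 or 4 of every group 17, 24, 22 and 23. Of 87 calls, 39 were kept in every alternative run. The named results here are spleen against thymus, age steps, and thymus minus spleen steps. Tests of spleen or thymus over the non-lymphoid organs are not among them. Fits that kept all 6 members had spleen higher in 214 to 216 of those tests and thymus in 215 to 216.

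Under library size scaling 3 tests had thymus higher than spleen instead of 9. The spleen minus thymus difference changed sign to 0.22 for miR-142-5p, 0.24 for miR-142-3p and 0.21 for miR-155-5p at week 21, and to 0.056 for miR-155-5p at week 104. The age step changed sign to -0.10 for miR-155-5p in heart from week 2 to 6, and from week 21 to 104 in testes to -0.27 for miR-142-5p and -0.55 for miR-150-5p. With all 320 samples the step of miR-155-5p in brain from week 2 to 6 became 0.19. DESeq2 called 7 differences between the thymus and spleen steps instead of 4. The cause was not tested.

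Leaving out replicate 1, 2, 3 or 4 of every group gave 9 to 13 age steps lower instead of 15, 35 to 46 higher instead of 52, and 0 to 1 sex differences. Library size scaling gave 36 higher and 19 lower, and lane as a factor 41 and 11. Without the male week-21 adrenal replicate 1 and the female week-104 lung replicate 1, chosen after seeing the data, 1 sex difference passed. The week-21 arm ratio difference of miR-142 ran from -0.11 to 0.25 when a replicate was left out, passing in none of these exact permutation tests. Adding 5 counts in place of 0.5 kept the arm ratio results. Of the 18 choices of a miRNA most like a member (3 for each), 16 were made again on log2(CPM + 10), 8 by Spearman's rho and 6 over the 9 non-lymphoid organs alone.

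The filter on a mean count of at least 10 leaves miR-155-3p without a value. With the replicate number as a block, 49 age steps were higher and 14 lower, 3 differences between thymus and spleen steps passed, and the week-104 arm ratio difference was -0.77. The labels do not say that a replicate number marks one rat: the correlation of samples with one number, after removal of group means, had a median of -0.04 over 31 spleen and thymus pairs (range -0.24 to 0.37), so the numbers do not show a pairing. Counts limit miR-155-3p outside the lymphoid organs.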
